A study of Mus musculus with 24 samples.

Results

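The cytosolic ribosomal protein genes encode the proteins of the 40S and 60S ribosomal subunits, and they were followed here in mouse hearts with lowered or raised phosphoinositide 3-kinase (PI3K) activity. Members were all genes whose annotated symbol starts with Rpl or Rps followed by a digit, with *Rplp0* to *Rplp2* and *Rpsa*, without the Rps6k kinases and without pseudogenes. The rule names 89 protein-coding genes in the RefSeq list. Of these, 49 have a probe set that names 1 gene, 31 lie only on probe sets that name several genes, and 9 are on no probe set of the annotation used. *Rps16* did not pass the filter on dim probe sets, which left 48 members among 14763 genes tested. The 48 comprise 21 genes of the small subunit, 26 of the large subunit, and *Rps19bp1*, which enters by its symbol but encodes a protein that binds RPS19 rather than a ribosomal protein.

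All animals were FVB/N mice. Some were nontransgenic (Ntg), some had a cardiac-specific dominant negative PI3K transgene (dnPI3K, with reduced activity), and some had a transgene for constitutively active PI3K (caPI3K, with increased activity). At 4 months of age they underwent sham surgery or myocardial infarction (MI), and hearts were removed 8 weeks afterwards. The 6 groups (Ntg sham, Ntg MI, dnPI3K sham, dnPI3K MI, caPI3K sham, caPI3K MI) hold 4 arrays each. A tag name on the samples of the caPI3K MI group says sham, whereas their titles and descriptions say MI, which was followed. Hearts were ground individually, yet no label ties each array to its own animal. The p-values therefore reflect spread among arrays, which may be in part technical. In whole-heart RNA, fewer cells of a type and less RNA per cell cannot be told apart.

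Ribosomal proteins are made in near-equal amounts and assemble with ribosomal RNA in the nucleolus, and their mRNAs are among the most abundant of the cell. In mammals most of these mRNAs begin with a cytosine followed by a run of pyrimidines, the 5′ terminal oligopyrimidine (TOP) tract, through which mTOR signalling downstream of PI3K controls their translation. The PI3K pathway is known in the heart for driving the growth of cardiomyocytes during development and exercise. An array measures the level of the mRNA and not its translation.

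Sequence around the annotated first base was available from RefSeq (build GRCm38.p6) for 43 of the 48 members. The start used is the first one listed for each gene, which is the annotated 5′ end of the gene for 35 of the 43. The windows of 5 members whose values are described further on are printed because the tract is the feature these genes are known to share. Each has the 15 bases before that start and the 15 bases from it, 5′ to 3′ on the gene's strand, and capitals mark runs of at least 8 C or T.
*Rpl35* (chr2:39005117-39005146, minus strand): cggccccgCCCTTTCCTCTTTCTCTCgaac
*Rplp2* (chr7:141447636-141447665, plus strand): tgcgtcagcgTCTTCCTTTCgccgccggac
*Rpl22l1* (chr3:28805493-28805522, plus strand): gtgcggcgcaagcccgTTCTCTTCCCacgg
*Rpsa* (chr9:120127751-120127780, plus strand): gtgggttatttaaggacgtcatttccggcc
*Rpl3l* (chr17:24727811-24727840, plus strand): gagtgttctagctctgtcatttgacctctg

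A run of at least 8 C or T lay in such a window for 18 of 43 members (41.9%), against 11.9% of 27025 genes. *Rpl35* has the longest run of the 5 windows shown, 18 bases, and neither *Rpsa* nor *Rpl3l* has a run above 5 bases there. Over windows of 300 bases (250 before the start and 50 from it), searched on both strands, the ETS-type motif CCGGAAGT was in 10 of 43 members (23.3%) and in 4.0% of all genes. The TATA-type motif TATAAA was in 5 members (11.6%) and in 14.2% of all genes. The E-box motif CACGTG was in 3 members (6.98%) and in 7.24% of all genes. The YY1-type motif AAGATGGC was in 3 members (6.98%) and in 2.88% of all genes. All these motifs were searched separately and none contains another. A match describes the letters only, since annotated starts can lie some bases away from the start in use.

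Signals are given as log2 of the deposited signal plus a small pseudocount. The mean log2 signal of the chosen probe sets was 6.76 to 15.60 over the members with a median of 14.45, and 37 of 48 lay above the 90th percentile of all genes. Levels of different genes were not ranked, because probe sets differ in their response. The scale of these arrays is uneven at the bright end. The sample titles end in numbers, here called array numbers, and no label says what they count. On Ntg sham replicates 1 and 2 and dnPI3K sham replicate 1 these are 415, 416 and 417. There genes as bright as the members were 0.24 to 0.27 log2 units above their own means. On dnPI3K sham replicate 2 (number 418) such genes were 0.08 above. For that reason the main counts and medians are given on the deposited scale and again relative to equally bright genes, that is after subtracting on each array the median deviation of a window of non-member genes nearest in mean signal (100 on either side of the central gene). The caPI3K sham arrays are numbered 1410, 1413, 1416 and 1417, above all other arrays (87 to 1191). That group and its numbers therefore cannot be told apart. Another feature separates most arrays of the caPI3K sham group. *Xist*, the RNA expressed from the inactive X of female cells, was at 6.77 to 7.08 on caPI3K sham replicates 1 to 3 and at 12.65 to 13.61 on the other 21 arrays. The mean of Y-linked genes was 8.10 to 8.19 on those 3 arrays and 4.32 to 7.07 on the others. The labels used here do not state the sex of the animals. All results with caPI3K sham hearts rest in part on those arrays, and the main ones are also given without them. On dnPI3K MI replicate 1 the median deposited signal of all probe sets was 150.3, against 102.5 to 118.2 on the other 23 arrays. The 12 cardiomyocyte markers were all measured, with summed signals of 462500 to 682300 over the 24 arrays.

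Across the 6 groups, the ribosomal protein genes were highest in dnPI3K sham hearts and lowest in caPI3K sham hearts. The median deviation of the 48 members from their own means over all arrays was 0.20 ± 0.12 log2 units in dnPI3K sham (SD, n = 4), 0.10 ± 0.15 in Ntg sham and −0.13 ± 0.07 in caPI3K sham hearts. After MI it was −0.05 ± 0.07 in dnPI3K, −0.04 ± 0.07 in Ntg and −0.07 ± 0.11 in caPI3K hearts. With the 6 groups ranked by this value, each pair of neighbouring groups differed by less than the larger of their SDs. On the dnPI3K sham arrays 41 to 44 of the 48 members were above their own mean, and on the caPI3K sham arrays 5 to 10 were.

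The order changed relative to equally bright genes, and the dnPI3K hearts stood high whether or not they had an infarct. The values were 0.10 ± 0.04 in dnPI3K sham (SD, n = 4), 0.08 ± 0.04 in dnPI3K MI, −0.003 ± 0.09 in Ntg MI, −0.01 ± 0.05 in Ntg sham, −0.03 ± 0.05 in caPI3K MI and −0.13 ± 0.08 in caPI3K sham hearts. The 8 dnPI3K arrays ran from 0.03 to 0.13 and the caPI3K sham arrays from −0.23 to −0.06, so these did not overlap. Neighbouring groups in this order again differed by less than the larger SD, except caPI3K MI and caPI3K sham, whose arrays overlapped. Ntg MI replicate 1, at 0.13, was as high as any dnPI3K array.

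**Figure D1:**
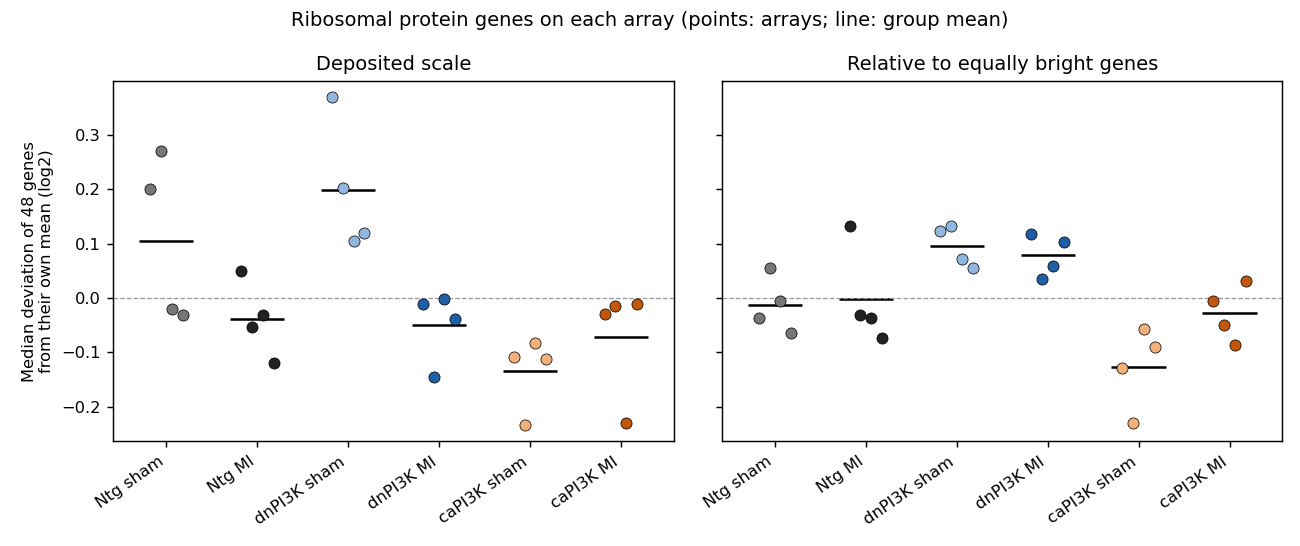
Median deviation of the 48 ribosomal protein genes from their own mean over 24 arrays (log2), per array, on the deposited scale and relative to equally bright genes. Points are arrays (n = 4 per group) and lines are group means; the dnPI3K sham arrays lie above the caPI3K sham arrays on both scales, and the dnPI3K MI arrays lie near dnPI3K sham only on the relative scale.

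The comparison of caPI3K sham with dnPI3K sham hearts sets raised against lowered PI3K activity without an infarct. Its caPI3K group also holds the arrays of low *Xist* (replicates 1 to 3), whereas *Xist* was at 12.97 to 13.51 on the dnPI3K sham arrays. On those replicates the transgene and the feature behind low *Xist* cannot be told apart. In this comparison 32 of 48 members were lower in caPI3K hearts and none was higher at an adjusted p under 0.05 (limma, Benjamini-Hochberg over all genes). Over all 14763 genes 4.5% were called lower and 9.88% were called in either direction. The median difference of the members was −0.32 log2 units, against −0.002 for all genes. On the scale relative to equally bright genes 27 members were lower, all of them among the 32, with a median of −0.19; 4.92% of all genes were called lower on that scale. Non-member genes with a mean log2 signal of 13 or more (504 genes) had a median of −0.10.

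Both subunits took part. Of the small-subunit genes 14 of 21 fell, with a median of −0.33, and of the large-subunit genes 18 of 26 fell, with a median of −0.32. Calls were mostly among the bright members. Of the 34 members with a mean log2 signal of 13 or more, 31 were lower, all 34 differences were negative and they ran from −0.55 to −0.23. Of the 14 dimmer members 1 was called, with differences from −0.66 to 0.23. All 4 arrays of one group lay below all 4 of the other for 36 members on the deposited scale (7.96% of all genes) and for 29 relative to equally bright genes (8.17%).

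*Rpsa*, the small-subunit protein also known as the laminin receptor precursor, had the smallest p. Its log2 signals were 14.82, 14.61, 14.53 and 14.62 in dnPI3K sham hearts and 14.10, 14.07, 14.16 and 14.19 in caPI3K sham hearts. The lowest dnPI3K array was well above the highest caPI3K array. The difference was −0.51 (SE 0.08, adjusted p = 9.5e-05), or 29.9% lower, and −0.42 (SE 0.06, adjusted p = 1.5e-05) relative to equally bright genes. The Ntg sham arrays, at 14.49, 14.55, 14.26 and 14.26, lay between the 2 transgenic groups, with 1 above the lowest dnPI3K array.

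*Rps3*, a small-subunit protein near the mRNA entry channel that also acts in DNA repair, followed the same order. Its signals were 14.72, 14.45, 14.44 and 14.43 in dnPI3K sham and 14.01, 13.92, 14.06 and 14.05 in caPI3K sham hearts. The groups did not overlap, although dnPI3K replicate 1 stood well above its other arrays. The difference was −0.50 (SE 0.09, adjusted p = 0.000318), and −0.43 relative to equally bright genes.

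*Rps4x* is an X-linked gene of the small subunit. It was at 15.15, 14.99, 14.81 and 14.85 in dnPI3K sham and at 14.54, 14.37, 14.54 and 14.51 in caPI3K sham hearts. Replicate 4, the caPI3K sham array with high *Xist*, was at 14.51, among the 3 other arrays of its group. The difference was −0.46 (SE 0.09, adjusted p = 0.000969), and −0.32 relative to equally bright genes. *Rps3a1*, another small-subunit gene, differed by −0.45 (SE 0.09, adjusted p = 0.000988), with 15.33 to 15.61 in dnPI3K sham and 14.89 to 15.07 in caPI3K sham hearts, and by −0.31 relative to equally bright genes.

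In the large subunit *Rpl35*, which encodes a protein near the exit of the nascent chain, changed most among the bright members. Its signals were 15.05, 14.82, 14.70 and 14.83 in dnPI3K sham and 14.31, 14.14, 14.36 and 14.38 in caPI3K sham hearts, with no overlap. The difference was −0.55 (SE 0.10, adjusted p = 0.000283), or 31.7% lower, and −0.43 relative to equally bright genes. The 5 bright *Rpl35* probe sets gave −0.60 to −0.50. A dim probe set for the gene, with a mean log2 signal of 6.33, gave 0.43.

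*Rpl22l1*, the paralog of *Rpl22*, had the largest difference of any member. Its signals were 13.07, 13.05, 12.89 and 13.14 in dnPI3K sham and 12.30, 12.08, 12.63 and 12.51 in caPI3K sham hearts. The difference was −0.66 (SE 0.15, adjusted p = 0.00424), and −0.63 relative to equally bright genes, so the brightness reference took little from it. *Rpl22* itself differed by −0.33 (SE 0.08, adjusted p = 0.0112), and by −0.20 relative to equally bright genes (adjusted p = 0.0408).

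The acidic stalk, which recruits elongation factors, was represented by *Rplp0* and *Rplp2*. *Rplp0* was at 15.47, 15.28, 15.20 and 15.09 in dnPI3K sham and at 14.96, 14.77, 15.03 and 14.97 in caPI3K sham hearts. The groups were apart by less than 0.1, and the difference was −0.33 (SE 0.09, adjusted p = 0.0239). After the brightness reference it was −0.19 (adjusted p = 0.0436) and the arrays overlapped. *Rplp2* differed by −0.37 (SE 0.08, adjusted p = 0.00214), and by −0.22 relative to equally bright genes (adjusted p = 0.00177).

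The members with positive differences were *Rpl7l1* (0.23), *Rps27* (0.17), *Rpl3l* (0.16), *Rps19bp1* (0.15) and *Rpl39l* (0.06), and none of these passed the test. *Rpl7l1*, *Rpl3l* and *Rpl39l* are paralogs of *Rpl7*, *Rpl3* and *Rpl39*. *Rpl7* differed by −0.36 (SE 0.09, adjusted p = 0.00763; −0.22 relative to equally bright genes), while *Rpl7l1* had an adjusted p of 0.186. The chosen probe sets of *Rps27*, *Rpl39* and *Rps6* had signals below those of most members, and none was called; *Rps6*, whose protein is phosphorylated downstream of mTOR, had −0.14 (SE 0.10, adjusted p = 0.453).

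**Figure D2:**
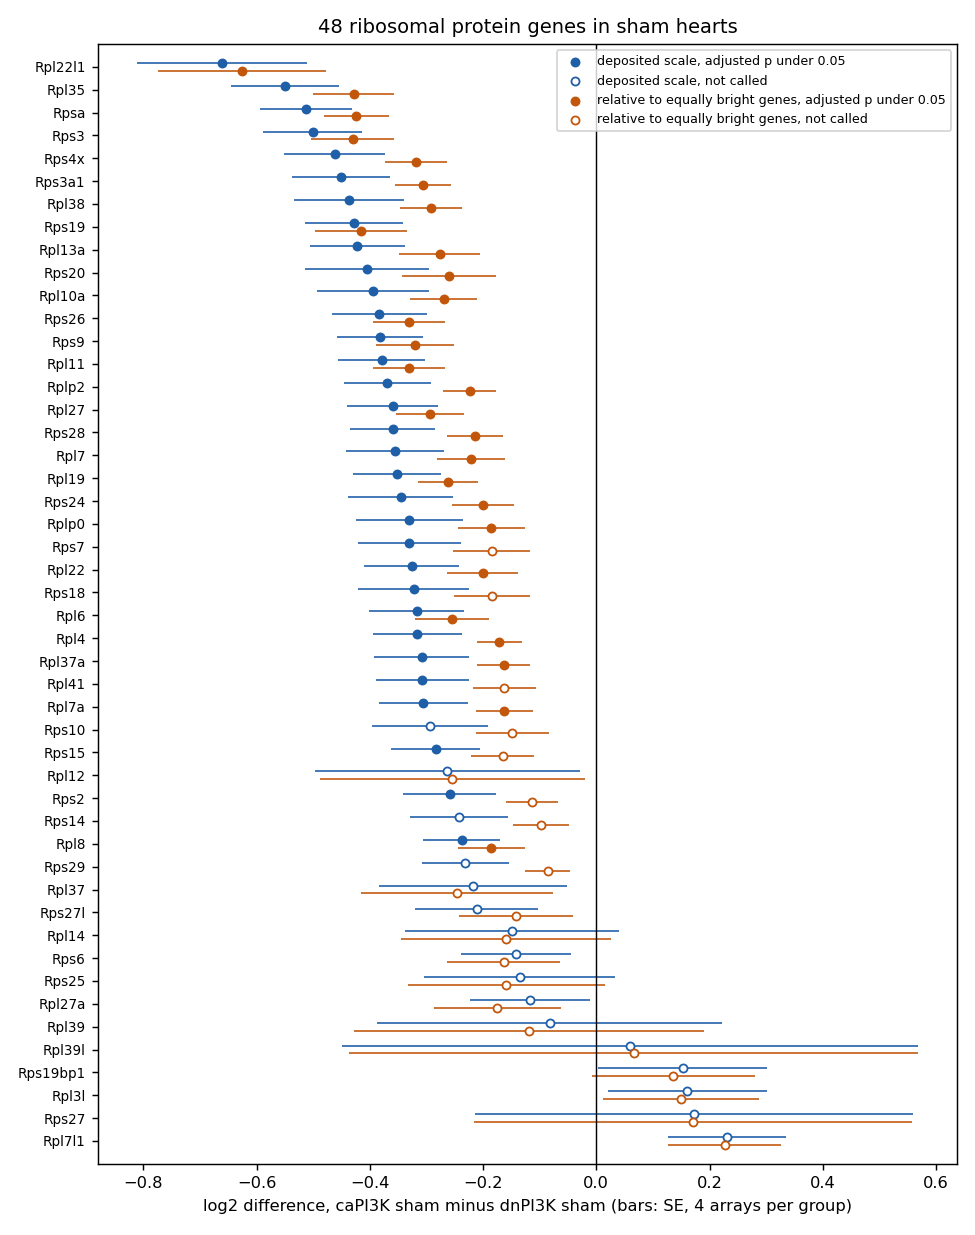
Difference between caPI3K sham and dnPI3K sham hearts for each of the 48 members (log2, bars SE, 4 arrays per group), on the deposited scale and relative to equally bright genes; filled points have an adjusted p under 0.05 in limma. All filled points lie left of 0, from −0.66 for *Rpl22l1* to −0.24 for *Rpl8* on the deposited scale.

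**Figure D3:**
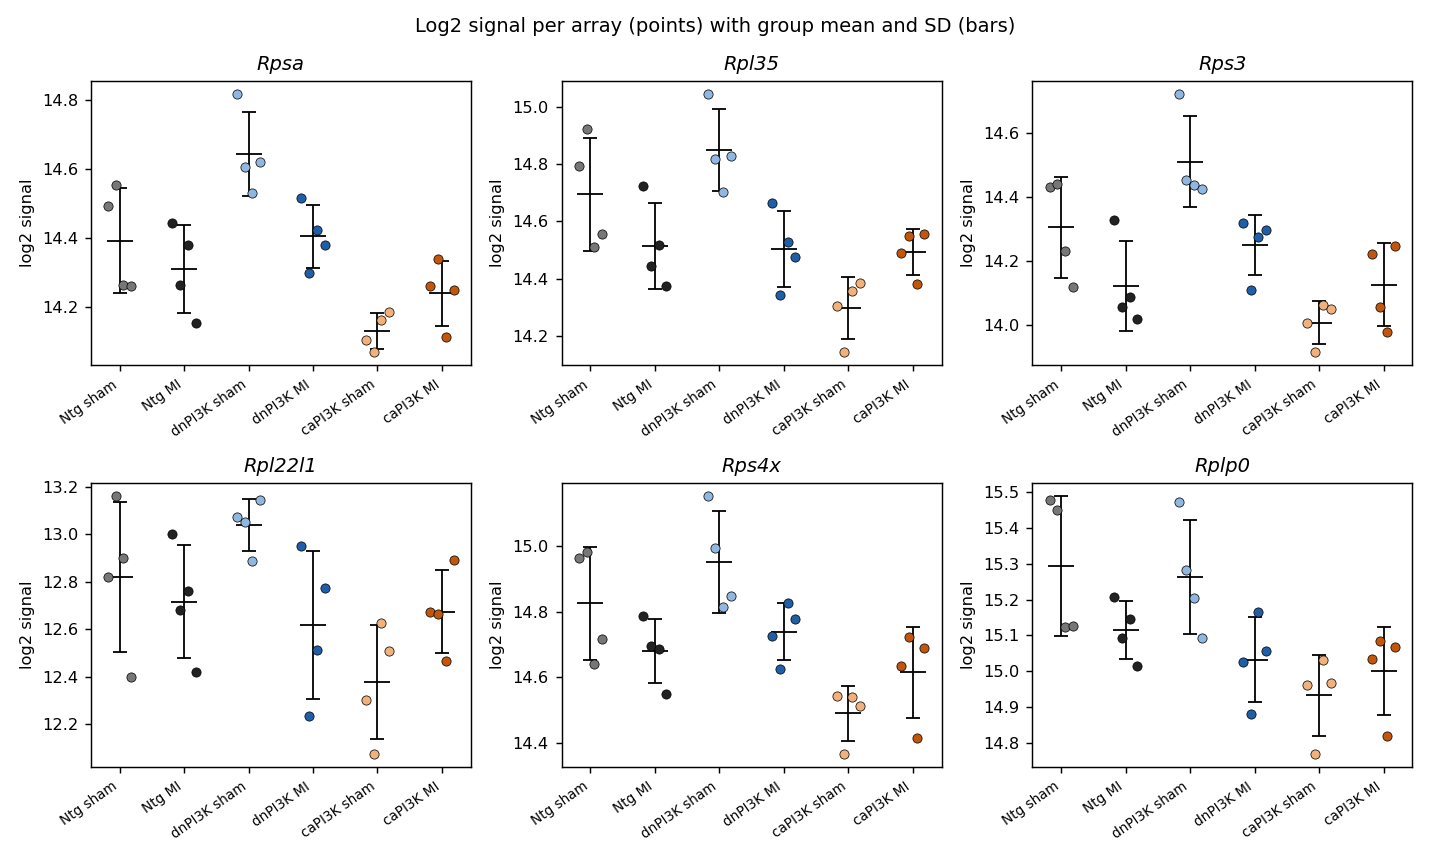
Log2 signal on each array for *Rpsa*, *Rpl35*, *Rps3*, *Rpl22l1*, *Rps4x* and *Rplp0*; points are arrays, bars the group mean and SD (n = 4). For each gene the caPI3K sham group has the lowest mean, and for all except *Rplp0* the dnPI3K sham group has the highest.

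Probe sets that name a member along with other genes were tested apart. Of 107 such probe sets 66 were lower in caPI3K sham hearts and none was higher, with a median of −0.36, against 3.25% called among all 5934 probe sets without 1 gene. Their median relative to equally bright genes was −0.24. All 59 single-gene probe sets of members with a mean log2 signal of 13 or more (34 genes) had negative differences, from −0.60 to −0.23. All 59 were also negative in caPI3K sham against Ntg sham, and in MI against sham in Ntg and in dnPI3K hearts. In those MI comparisons the members' medians relative to equally bright genes were −0.00081 (Ntg) and −0.016 (dnPI3K). With only probe sets whose identifier has no suffix letter, which left 24 members, 6 were called and the median was −0.13.

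The count leaned on several arrays. It was 15 without the sham arrays numbered 415 to 418, and 12 relative to equally bright genes. It was 19 without dnPI3K sham replicate 1 or without caPI3K sham replicate 2, and 17 without the latter relative to equally bright genes. Without caPI3K sham replicates 1 to 3 it was 0 on the deposited scale and 1 relative to equally bright genes, with 1 array left in the group, which is then assumed to vary like the other groups. The median difference was −0.30 in that fit and −0.21 relative to equally bright genes, close to the values with all arrays. *Rpsa* was then at −0.46 (adjusted p = 0.104), *Rpl35* at −0.46 (adjusted p = 0.166) and *Rpl22l1* at −0.53 (adjusted p = 0.343), so none of these 3 was called. With quantile normalization 17 members were called and the median was −0.14.

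Markers of other cells moved with this comparison in part. Of 12 fibroblast markers 2 were lower in caPI3K sham hearts (*Tcf21* and *Dpt*), and their summed signal was 70990 to 82300 there and 82940 to 96910 in dnPI3K sham hearts. Of 4 measured adipocyte markers (7 listed) 2 were lower (*Adipoq*, −1.60, and *Retn*, −1.09), with sums of 37940 to 38210 and 38130 to 46460. The nuclear RNAs *Neat1* and *Meg3*, 2 of 4 listed for RNA quality, were lower, with sums of 14860 to 16960 and 21910 to 30580. The sums of that list were 19810 to 24240 in Ntg sham and 14000 to 16470 in caPI3K MI hearts. *Vwf*, 1 of 10 endothelial markers, and *Krt18*, 1 of 6 measured epicardial and mesothelial markers (7 listed), were lower too. The endothelial sums were 16260 to 19170 in caPI3K sham and 19050 to 20300 in dnPI3K sham hearts, and the epicardial sums were 593.6 to 808.0 and 488.5 to 893.3. None of the 12 cardiomyocyte markers was called on the deposited scale, and 1, *Ryr2*, was higher relative to equally bright genes (0.47, adjusted p = 0.0408), with sums of 518800 to 549000 and 527400 to 676400. The part of these markers in the result was not tested.

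Against Ntg sham hearts the 2 transgenic lines lay on either side. In caPI3K sham hearts 45 of 48 members were lower than in Ntg sham, with a median of −0.23, and none passed the test (0.257% of all genes did). Unadjusted p was under 0.05 for 33 members lower and 1 higher (limma), and for 11.2% of all genes in either direction. *Rpl35* had the smallest adjusted p, 0.0709, with −0.40 (SE 0.10), followed by *Rplp0* with −0.36 and *Rps4x* with −0.34. The median relative to equally bright genes was −0.092 and 0 members passed (0.325% of all genes did). At an unadjusted p under 0.05 (limma) 16 members were lower and 1 higher, against 772 and 825 of 14763 genes. Without Ntg sham replicate 4 the count called lower was 15, and 2 relative to equally bright genes, with 2.78% and 2.61% of all genes called in those fits. Without the 3 caPI3K sham arrays of low *Xist* none was called, and the median was −0.22 (−0.085 relative to equally bright genes).

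In dnPI3K sham hearts 43 of 48 members were higher than in Ntg sham, with a median of 0.09, and 0 passed the test (1.12% of all genes did). Unadjusted p was under 0.05 (limma) for 4 members (8.33%) and for 10.8% of all genes. The median relative to equally bright genes was 0.11 and 2 members passed, against 1.33% of all genes. Unadjusted p on that scale was under 0.05 for 16 members higher and 0 lower (limma), and for 825 of 14763 genes higher. The 4 dnPI3K sham arrays lay above the 4 Ntg sham arrays for 16 members (3.15% of all genes). The 2 that passed were *Rpsa* at 0.28 (SE 0.06, adjusted p = 0.0105) and *Rps3a1* at 0.23 (SE 0.05, adjusted p = 0.0146). Neither was called on that scale without the sham arrays numbered 415 to 418, and 1 was called without dnPI3K sham replicate 2. The comparisons with Ntg sham share the Ntg arrays with each other, and each shares a transgenic group with the comparison of caPI3K and dnPI3K sham hearts.

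MI was compared with sham within each genotype. In dnPI3K hearts 14 of 48 members were lower after MI and none was higher, against 9.42% of all genes called in either direction and 5.19% called lower. The median difference was −0.24. Those called were *Rpl3l*, *Rpl6*, *Rpl7*, *Rpl8*, *Rpl11*, *Rpl19*, *Rpl27*, *Rpl35*, *Rpl37a* and *Rplp2* of the large subunit and *Rps3a1*, *Rps9*, *Rps15* and *Rps18* of the small. *Rpl6* had −0.39 (SE 0.08, adjusted p = 0.00324) and *Rplp2* −0.32 (SE 0.08, adjusted p = 0.0075).

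These differences were of the size seen in other bright genes. The 504 non-member genes with a mean log2 signal of 13 or more had a median of −0.19 in the same comparison. The members' median relative to equally bright genes was −0.016, with 28 below 0 and 20 above, and 1 member was called, *Rpl3l* (3.77% of all genes were called lower). *Rpl6* then had −0.19 (adjusted p = 0.0766) and *Rplp2* −0.06 (adjusted p = 0.489). The deposited-scale count was 3 without the sham arrays numbered 415 to 418. It was 4 without dnPI3K sham replicate 1 or dnPI3K MI replicate 2, 9 without dnPI3K sham replicate 2 or dnPI3K MI replicate 4, and 36 with a term for low array numbers. Without dnPI3K MI replicate 1, the array of high median signal, it was 15, and 2 relative to equally bright genes.

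**Figure D4:**
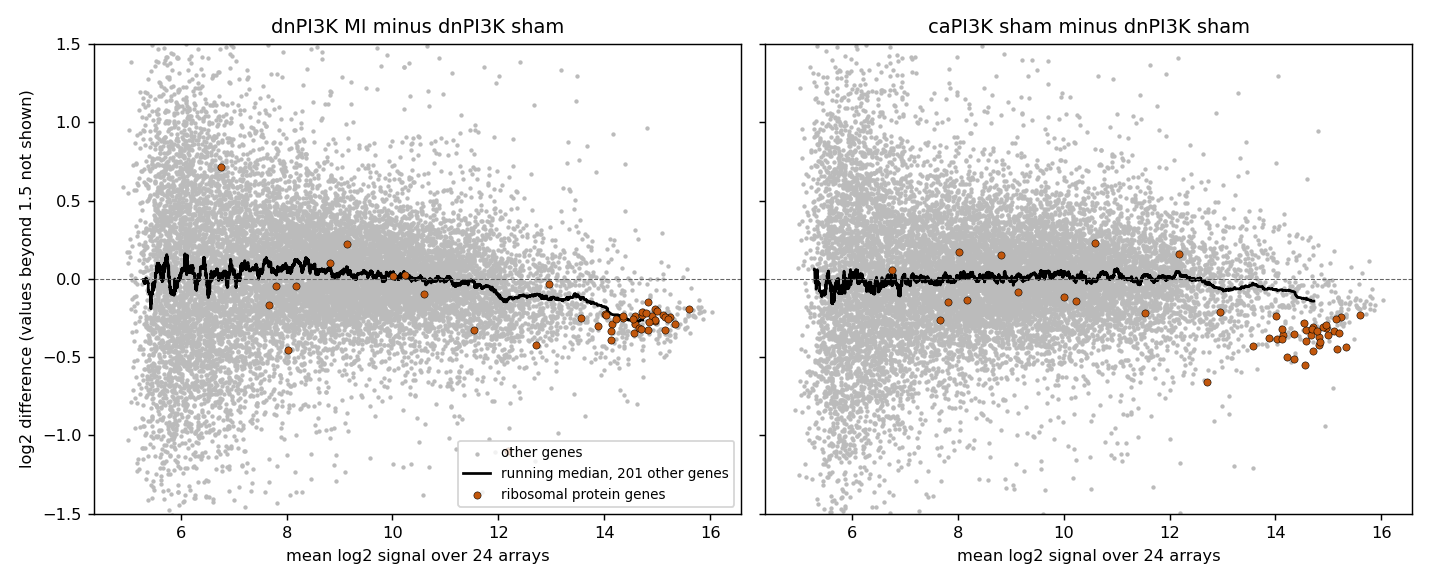
Log2 difference against mean log2 signal for all tested genes, for dnPI3K MI against dnPI3K sham and for caPI3K sham against dnPI3K sham; the line is the running median of other genes and orange points are the 48 members. In the MI comparison the bright members lie around the line, and in the sham comparison they lie below it.

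*Rpl3l* was the member with the largest change after MI in dnPI3K and in caPI3K hearts. It encodes the striated-muscle paralog of RPL3, a core protein of the peptidyl transferase centre, and takes its place in ribosomes of heart and skeletal muscle. In dnPI3K hearts its log2 signals were 12.47, 12.10, 12.54 and 12.56 after sham and 11.72, 11.26, 11.41 and 10.88 after MI. Every MI array was below every sham array, and MI replicate 4 was the lowest of all 24 arrays. The difference was −1.10 (SE 0.14, adjusted p = 4.3e-05), or 53.4% lower, and −0.99 (SE 0.14, adjusted p = 0.000103) relative to equally bright genes. With each array left out in turn the difference was −1.24 to −0.96 and every adjusted p stayed under 0.05.

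In caPI3K hearts *Rpl3l* was at 12.47, 12.64, 12.45 and 12.75 after sham and at 12.02, 12.17, 11.99 and 11.84 after MI, again without overlap. The difference was −0.57 (SE 0.14, adjusted p = 0.0393), or 32.8% lower, and −0.55 (adjusted p = 0.0425) relative to equally bright genes. The call was lost in 6 of the 8 fits that leave out 1 array, all except those without caPI3K sham replicate 3 or caPI3K MI replicate 2, with adjusted p from 0.0402 to 0.142 over the 8. On the relative scale it was lost in all 8. Without the 3 caPI3K sham arrays of low *Xist* it was −0.75 (adjusted p = 0.373).

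In Ntg hearts *Rpl3l* was at 12.78, 12.66, 12.75 and 12.18 after sham and at 12.02, 12.29, 12.02 and 12.23 after MI. Sham replicate 4 lay among the MI arrays, and the groups overlapped. The difference was −0.45 (SE 0.14) and did not pass the test (adjusted p = 0.145); without sham replicate 4 it was −0.59 (adjusted p = 0.00864). The 3 sham groups had like levels of *Rpl3l*, with means of 12.59 ± 0.28 in Ntg, 12.42 ± 0.21 in dnPI3K and 12.58 ± 0.14 in caPI3K hearts (SD, n = 4).

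The MI effect on *Rpl3l* was 0.65 log2 units more negative in dnPI3K than in Ntg hearts (SE 0.20), which did not pass the test over all genes (adjusted p = 0.522). The effect in caPI3K hearts differed from that in dnPI3K hearts by 0.53 (SE 0.20, adjusted p = 0.331) and from that in Ntg hearts by −0.12 (SE 0.20, adjusted p = 0.979). Of 12 cardiomyocyte markers *Tnni3* (−0.35) and *Atp2a2* (−0.31) were lower in dnPI3K MI than in dnPI3K sham hearts, and neither was called relative to equally bright genes. The sums of the 12 were 481400 to 532900 after MI and 527400 to 676400 after sham. Of 12 fibroblast markers 7 were higher, among them *Postn* (1.80) and *Col1a1* (1.36), with sums of 115500 to 141400 after MI and 82940 to 96910 after sham. Of all genes 4.23% were called higher in dnPI3K hearts after MI. Of the 6 measured epicardial and mesothelial markers *Wt1* (0.80) and *Krt18* (1.63) were higher, with sums of 1163 to 1899 and 488.5 to 893.3. *Laptm5* (0.79), 1 of 14 macrophage and myeloid markers, and 1 of 7 smooth muscle and pericyte markers were higher too. The myeloid sums were 32640 to 45730 after MI and 25480 to 41710 after sham, and the smooth muscle sums were 35810 to 42680 and 35550 to 40870. Of the 4 measured adipocyte markers *Adipoq* (−1.29) and *Fabp4* (−0.24) were lower, with sums of 35100 to 36890 after MI and 38130 to 46460 after sham. In caPI3K hearts 5 of 12 fibroblast markers were higher after MI, with sums of 104000 to 117400 against 70990 to 82300 after sham, and *Krt18* was higher (1.25). Of all genes 0.853% were called higher there. None of the 14 macrophage and myeloid markers was called, with sums of 32630 to 42760 after MI and 23450 to 30140 after sham. The part of these markers in the falls of *Rpl3l* was not tested.

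**Figure D5:**
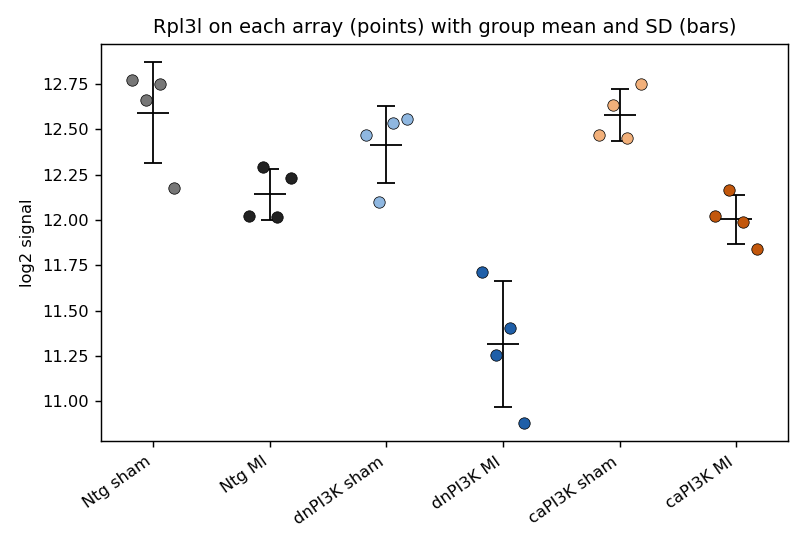
Log2 signal of *Rpl3l* on each array with the group mean and SD (n = 4). The dnPI3K MI arrays, from 10.88 to 11.72, lie below all other arrays.

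None of the remaining members was called after MI in Ntg or caPI3K hearts. In Ntg hearts 42 of 48 were lower after MI with a median of −0.16, and 0 passed the test (0.779% of all genes did). Of the members 12 lower and 1 higher had an unadjusted p under 0.05 (limma), against 12.0% of all genes in either direction. The median relative to equally bright genes was −0.00081. In caPI3K hearts the median was 0.06, and 0.10 relative to equally bright genes, where 41 of 48 were above 0. On the relative scale 16 members higher and 1 lower had an unadjusted p under 0.05 (limma), against 1010 of 14763 genes higher, and for 8 members all MI arrays lay above all sham arrays (5.3% of all genes). Without the 3 caPI3K sham arrays of low *Xist* the median was 0.05, and 0.09 relative to equally bright genes. With all arrays *Rpl3l* was the only member called there on either scale, against 1.11% of all genes on the deposited scale and 1.33% on the relative one. *Rps27l*, a p53-induced paralog of *Rps27*, had 0.27 (SE 0.11, adjusted p = 0.284), and *Rpl35* 0.20 (SE 0.10, adjusted p = 0.408).

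No difference between MI effects was called for a member, and 0 of 14763 genes were called in any of the 3. For caPI3K against dnPI3K hearts 33 members had an unadjusted p under 0.05 (limma), all with a more positive MI effect in caPI3K hearts, with a median of 0.31 and a smallest adjusted p of 0.163 (*Rpl35*, 0.54, SE 0.13). Relative to equally bright genes 11 members and 734 of 14763 genes did so, with a median of 0.11 for the members. Of all genes 10.2% had an unadjusted p under 0.05 on the deposited scale.

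Other genes of the translation machinery were followed in lists. In caPI3K sham against dnPI3K sham hearts 11 of 32 measured translation factors (38 listed) were lower and 2 were higher, against 4.5% and 5.38% of all genes. Relative to equally bright genes 10 factors were lower and 2 higher, against 4.92% and 5.44% of all genes. The lower ones included the elongation factors *Eef2* (−0.30, SE 0.07, adjusted p = 0.00532) and *Eef1a1* (−0.29, SE 0.08, adjusted p = 0.024, but −0.14 and adjusted p = 0.151 relative to equally bright genes) and the initiation factor subunit *Eif3e* (−0.36, SE 0.08, adjusted p = 0.00435). *Eef1a2*, the elongation factor form of adult muscle and neurons, was higher (0.28, SE 0.07, adjusted p = 0.00961), as was *Eif5* (0.35). The median of the list was −0.12, against −0.002 for all genes. The largest fall in the list was that of *Eif2s3x* (−0.51, SE 0.10, adjusted p = 0.00067). *Eif2s3x* was also called in caPI3K sham against Ntg sham (−0.53) and in caPI3K MI against caPI3K sham hearts (0.47). The caPI3K sham arrays include those of low *Xist*, and the part of those arrays in these differences was not tested.

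Of 46 measured ribosome biogenesis genes (47 listed) 3 were lower and 1 higher in that comparison, with a median of −0.05, against 9.88% of all genes called in either direction, a like share; relative to equally bright genes 4 were lower and 1 higher. *Npm1*, which encodes the nucleolar protein nucleophosmin, had −0.38 (SE 0.08, adjusted p = 0.00146). Of 32 measured genes of mTOR and TOP mRNA signalling (36 listed) 4 were lower and 3 higher, and 3 and 2 relative to equally bright genes. *Eif4ebp1*, the inhibitor of cap-dependent initiation that mTOR phosphorylates, was lower (−0.61, SE 0.10, adjusted p = 0.000221), and *Larp1*, which binds TOP mRNAs, was higher (0.37, SE 0.11, adjusted p = 0.0351). *Mtor* itself was higher (0.38, SE 0.11, adjusted p = 0.0253), but not relative to equally bright genes (adjusted p = 0.0612). The other calls of this list were *Akt1* (−0.63), *Larp4* (−0.43) and *Maf1* (−0.25), which were lower, and *Akt1s1* (0.62), which was higher. Of these only *Maf1* was not called relative to equally bright genes.

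The 76 mitochondrial ribosomal protein genes, which build a separate ribosome for proteins encoded in mitochondrial DNA, were counted in the same way. In caPI3K sham against dnPI3K sham hearts 12 were higher and 4 lower, with a median of 0.04, and 11 and 3 relative to equally bright genes. Of all genes 5.38% were called higher and 4.5% lower, and 5.44% and 4.92% on the relative scale. In dnPI3K hearts after MI 35 were lower and none higher, with a median of −0.25, against 5.19% of all genes called lower. Relative to equally bright genes 25 were still lower, with a median of −0.19, against 3.77% of all genes. The difference between the cytosolic and mitochondrial lists was not tested.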

How the data were processed

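The deposited values of the 24 Affymetrix arrays are signal intensities made with MAS5 by the authors, per the submitters' processing notes, with no version given. Mean signal, trimmed by 2 percent at each end, was 500.003 to 500.004 on every array, so the main setting adds no normalization. Of 45101 probe sets, 34945 name 1 gene. Those exceeding the 40th percentile of an array on 4 or more arrays were used, the brightest per gene. Of the members' probe sets 32 have identifiers ending in _x_at, _s_at or _a_at, which can mark probes shared by related transcripts, so near-identical copies may contribute. Log2(signal + 11.23) was fitted with 6 group means in limma 3.58.1 (R 4.3.3, intensity trend, 18 residual degrees of freedom) for 9 comparisons, with Benjamini-Hochberg adjustment over 14763 genes; SEs are the model's. The brightest members take the reference of the last full window.

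Members and gene lists were chosen with earlier results of these data known. Named members are, per comparison, up to 6 called ones per direction of largest change without overlap, the 3 of smallest p where fewer than 3 were called, and a set list of paralogs, stalk proteins, *Rps6* and *Rpsa*; not all are printed. *Rpl8*, *Rps19bp1*, the full list of those called after MI, and genes outside the members were named after their values were seen. Simulated data (5 runs of caPI3K sham against dnPI3K sham, 14763 genes) had 200 changed genes, drawn at random from all genes. A change of 0.3, 0.5 or 1 log2 units was recovered for 9.55%, 26.0% or 64.2% of genes so changed, with 1.8 false calls per run. The changed genes were of any brightness and fewer than the 1459 genes called in the data. These shares therefore do not describe the bright members. Alternatives were normalization, pseudocount, filter, probe set rule, variance trend, array-number term, groups in the fit, and arrays left out. The number of arrays limits precision.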

Additional observations from a re-analysis of the deposited data

Results flagged for a closer look

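Of 60 sets of 4 arrays examined (8 named members and the members' median on both scales, in each group), 3 had an array far from the others, as chance gives for about 1 in 20. *Rps3* on dnPI3K sham replicate 1 was at 14.72, against 14.43 to 14.45 on the other arrays of that group. *Rps3a1* on caPI3K MI replicate 3 was at 14.85, against 15.09 to 15.13. The members' median deviation on that same caPI3K MI array was −0.23, against −0.03 to −0.01 on the others of the group. Relative to equally bright genes that array was at −0.09 and the others ran from −0.05 to 0.03.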

How the results depend on the processing

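No paired analysis was possible because the groups share no replicate numbers in the labels.

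For caPI3K sham against dnPI3K sham, where 32 members were lower, the count was 17 with quantile normalization, 6 with only probe sets without a suffix letter, 15 without the sham arrays numbered 415 to 418 and 0 without the 3 caPI3K sham arrays with Y-linked signal. With 1 array left out it was 19 to 33. The median, −0.32, became −0.14 with quantile normalization, −0.19 with brightness centring and −0.13 with suffix-less probe sets. On the relative scale, where 27 were lower, the count was 12 without arrays 415 to 418, 1 without the Y-linked arrays and 17 to 26 with 1 array left out.

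For dnPI3K MI against sham, where 14 members were lower, the count was 1 with quantile normalization or brightness centring, 9 with no filter or with the mean of all probe sets, 4 with suffix-less probe sets, 8 with no intensity trend, 36 with the array-number term, 3 without arrays 415 to 418 and 4 to 18 with 1 array left out. The median became −0.023 with quantile normalization, −0.016 with brightness centring and −0.046 with suffix-less probe sets. On the relative scale the count of 1 became 2 with the array-number term and was 1 to 2 with 1 array left out. Here *Rps9* turned to 0.14 with the mean of all probe sets and to 0.59 with suffix-less probe sets, and *Rpl35* to 0.18 with suffix-less probe sets; in caPI3K sham against dnPI3K sham *Rpl35* turned to 0.43 there. These settings bring in dim probe sets.

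For caPI3K MI against sham the count of 1 lower became 0 with the mean of all probe sets, with no intensity trend, with the array-number term and without the Y-linked arrays, and was 0 to 1 with 1 array left out; the median of 0.06 became −0.080 with the array-number term. On the relative scale the count was 0 without the Y-linked arrays, 0 with the array-number term and 0 to 0 with 1 array left out. For Ntg MI against sham the median became −0.00543 with quantile normalization, −0.00081 with brightness centring and −0.018 without arrays 415 to 418, and leaving out 1 array gave 0 to 1 called higher and 0 to 2 called lower.

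For caPI3K sham against Ntg sham the median of −0.23 became −0.082 with quantile normalization, −0.092 with brightness centring, −0.10 with suffix-less probe sets and −0.093 without arrays 415 to 418; leaving out 1 array gave 0 to 15 called lower, and 0 to 2 on the relative scale. For dnPI3K sham against Ntg sham 2 were higher with quantile normalization or brightness centring and 1 with the array-number term; on the relative scale it was 0 without arrays 415 to 418 and 1 to 2 with 1 array left out. For the MI effect in caPI3K minus that in Ntg hearts the median of 0.21 became 0.081 with quantile normalization, 0.099 with brightness centring, 0.067 with suffix-less probe sets, 0.023 with the array-number term and 0.076 without arrays 415 to 418. For caPI3K minus dnPI3K the median of 0.31 became 0.091 with quantile normalization, 0.11 with brightness centring and 0.0026 with suffix-less probe sets, and 1 member was called higher when only the compared groups were fitted.

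The causes were not tested. Of 2987 values of named members under alternatives, 62 lost a call and 24 gained a call. A further 4 turned sign with a call in either fit. The remaining 2897 kept their side of the threshold, and values not called could change sign among them. Combinations of brightness centring with other settings were chosen after seeing the data.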
